A study of Mus musculus with 8 samples.

Results

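Kainate receptors are ion channels opened by glutamate, and the genes described here encode their 5 subunits (*Grik1*, *Grik2*, *Grik3*, *Grik4* and *Grik5*) and the 2 auxiliary proteins that bind them (*Neto1* and *Neto2*). The genes were chosen as a family, by symbol, and are 7 of the 31053 genes counted in each nucleus. The counts come from single-nucleus RNA sequencing (snRNA-seq) of the cortex of naive mice labelled as 6 weeks old. The 10x Single Cell 3′ v3 chemistry gave each captured RNA molecule a unique molecular identifier (UMI). Wild-type mice (Wt, *Ifnar1*+/+) of strain C57BL6J were compared with mice of the same strain without *Ifnar1* (*Ifnar1*-/-), the gene for a chain of the type I interferon receptor. The deletion is present in every cell of the animal and not in a chosen cell type. Each genotype had 4 mice, 2 females (F1 and F2) and 2 males (M1 and M2), and each mouse gave 1 library.

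Total UMIs were 55053026, 50295802, 58423423 and 46076959 in Wt F1, F2, M1 and M2. They were 44063346, 46079274, 58057084 and 48344790 in *Ifnar1*-/- F1, F2, M1 and M2. After filters and removal of 2274 nuclei called as doublets, 5314, 5778, 8900 and 6187 nuclei of the Wt mice and 8179, 4314, 7122 and 6273 of the *Ifnar1*-/- mice entered the analysis. Among the analysed nuclei 327 of 51736 barcode sequences occurred in more than 1 library, and any pair of libraries had 3 to 23 in common. No library was a copy of another: the Pearson correlation of a pair of libraries across genes, which are not independent replicates, was 0.979 to 0.998.

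The deleted gene was read first as a check of the labels. *Ifnar1* had 19.9, 16.2, 17.5 and 18.8 UMIs per 1000000 UMIs of the same nuclei (CPM) in all nuclei of Wt F1, F2, M1 and M2, from 1009, 754, 886 and 815 UMIs. It had 13.9, 14.5, 16.9 and 15.9 CPM in *Ifnar1*-/- F1, F2, M1 and M2, from 554, 620, 902 and 727 UMIs. The genotypes overlapped, since *Ifnar1*-/- M1 lay above Wt F2. In oligodendrocytes alone *Ifnar1* had 26.3, 15.5, 14.4 and 20.5 CPM in the Wt mice and 14.7, 22, 20.8 and 17.3 CPM in the *Ifnar1*-/- mice, again overlapping. In microglia, looked at after their values were seen, it had 62.1, 42.4, 54.3 and 56.5 CPM in the Wt and 23.0, 28.6, 30.8 and 36.2 CPM in the *Ifnar1*-/- mice, without overlap (199 and 98 UMIs, log2 fold change -0.81, SE 0.22, edgeR p 0.00294, adjusted p 1.00, lower in 4 of 4 *Ifnar1*-/- mice), so each library lay on the side of its label there. In the other classes the genotypes overlapped. A count per gene does not show which stretch of the transcript was read.

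Kainate receptors are tetramers. The subunits of *Grik1*, *Grik2* and *Grik3* form working channels without other subunits and are called low-affinity, whereas those of *Grik4* and *Grik5* bind kainate more tightly and need a low-affinity partner to reach the surface. Neto proteins change the gating and the placement of these receptors, which act on both sides of synapses in cortical circuits, and cells of the oligodendrocyte lineage carry kainate receptors as well.

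Cell classes were rebuilt from 48 clusters with lists of marker genes, and each class name stands for nuclei like that cell type. The clusters were made without the kainate receptor and Neto genes. Clusters without a clear class were not named, by a threshold set after the clusters were seen, and held 15.4% ± 3.30 (SD, n = 4) of the nuclei of Wt mice and 16.6% ± 5.66 (SD, n = 4) of those of *Ifnar1*-/- mice. The named nuclei comprised 23921 glutamatergic neurons, 6584 GABAergic neurons, 970 striatal projection neurons, 7088 oligodendrocytes, 452 oligodendrocyte precursors, 212 newly formed oligodendrocytes, 4386 microglia and 161 astrocytes. Subclasses of the glutamatergic and GABAergic neurons brought the number of populations to 18. UMIs were summed per population and mouse, and a level is the CPM of the population in that mouse. Means and SDs over both genotypes are from 8 mice, except for astrocytes (n = 6) and newly formed oligodendrocytes (n = 7), where mice with fewer than 10 nuclei were left out. The means of neighbours in an order are said to differ beyond their spread when the gap exceeds the sum of their SDs.

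The genes lie on different chromosomes of build GRCm38. *Grik1* (ENSMUSG00000022935) lies at chr16:87895900-88290265, *Grik2* (ENSMUSG00000056073) at chr10:49094833-49788766 and *Grik3* (ENSMUSG00000001985) at chr4:125490700-125714173. *Grik4* (ENSMUSG00000032017) lies at chr9:42518135-42944493 and *Grik5* (ENSMUSG00000003378) at chr7:25009849-25072346. *Neto1* (ENSMUSG00000050321) lies at chr18:86394952-86506718 and *Neto2* (ENSMUSG00000036902) at chr8:85636588-85700924. *Grik2* holds 6 annotated genes on its own strand (*Gm47017*, *Gm26543*, *Gm47018*, *Gm47023*, *Gm47016* and *Gm47022*), *Grik3* holds *Ftl2-ps* and *Mir692-2*, and *Grik4* holds *Gm24420* and *Gm27509*. *AC113599.1* lies on the opposite strand within *Neto1*, and *Mir8109* on the opposite strand across an end of *Neto2*. None of these overlapping genes is among the genes counted, and whether the counting used strand is not stated, so their RNA cannot be told apart from that of the receptor genes. *Grik1* and *Grik5* overlap no annotated gene.

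Per kb of exon, the level in GABAergic neurons was 169.7 CPM for *Grik1* and 153 CPM for *Grik2*, against 38.2 for *Neto1*, 34.7 for *Neto2*, 20.3 for *Grik5*, 18.8 for *Grik3* and 13.3 for *Grik4*. In glutamatergic neurons *Grik2* led on that scale with 57.8 CPM per kb of exon, followed by *Grik5* with 32.9, *Neto1* with 25.2, *Grik4* with 23.2, *Grik3* with 22.6, *Grik1* with 14.2 and *Neto2* with 13.0. In oligodendrocytes, over both genotypes, *Grik2* had 72.9 and *Grik1* 50.2 CPM per kb of exon, and the other genes had between 1.11 (*Grik3*) and 7.47 (*Grik5*). That order of the first 2 was the order of the Wt mice (*Grik2* 75.3, *Grik1* 22.3), whereas in *Ifnar1*-/- mice *Grik1* had 78.1 and *Grik2* 70.5 CPM per kb of exon. The order of the genes depends on the length used, because unspliced RNA was counted too. Per 100 kb of gene span, *Neto2* led in GABAergic neurons with 330.9 CPM, followed by *Grik2* with 291, *Grik1* with 289 and *Neto1* with 285. In glutamatergic neurons *Grik5* led by span with 272 CPM per 100 kb, followed by *Neto1* with 188, *Neto2* with 123 and *Grik2* with 110. On the scale of the span *Grik2* with 139 and *Grik1* with 85.5 CPM per 100 kb were first and second in oligodendrocytes over both genotypes. In the Wt mice *Grik2* with 144 was followed by *Grik5* with 64.0 and *Grik1* with 37.9, and in the *Ifnar1*-/- mice *Grik2* had 134 and *Grik1* 133 CPM per 100 kb.

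*Grik1*, the low-affinity subunit also known as GluK1, was highest in interneurons. Its level was 1882 ± 127 CPM in Lamp5 interneurons, 1397 ± 141 in Sst interneurons, 917 ± 130.0 in L5/6 near-projecting (NP) neurons, 896 ± 142 in Pvalb interneurons and 585 ± 93.0 in Vip interneurons. Lamp5 lay above Sst interneurons, these above L5/6 NP neurons and Pvalb above Vip interneurons beyond the spread, whereas L5/6 NP neurons and Pvalb interneurons did not differ beyond it. Oligodendrocytes had 337 ± 203 CPM of *Grik1* over both genotypes, L4 intratelencephalic (IT) neurons 334 ± 47.3 and oligodendrocyte precursors 274 ± 115. No step from Vip interneurons down to precursors exceeded the spread, whereas the step from precursors to claustrum and Car3 neurons did. In oligodendrocytes and precursors these means join 2 genotypes that did not overlap (149.6 in Wt and 525 in *Ifnar1*-/- oligodendrocytes, 359 and 188 in precursors), so the SD holds the difference by genotype, and precursors lay above oligodendrocytes in Wt and below them in *Ifnar1*-/- mice. The levels below these were 54.3 ± 19.6 CPM in claustrum and Car3 neurons, 51.9 ± 44.4 in astrocytes, 30.7 ± 12.3 in striatal projection neurons, 19.7 ± 11.6 in microglia, 17.5 ± 12.2 in L6b neurons, 13.3 ± 5.84 in L5 extratelencephalic (ET) neurons and 13.2 ± 10.0 in newly formed oligodendrocytes. The lowest levels of *Grik1* were 7.85 ± 2.22 CPM in L2/3 IT, 5.97 ± 2.13 in L5 IT and 4.78 ± 2.12 in L6 corticothalamic (CT) neurons. From claustrum and Car3 neurons downwards no neighbours in the order differed beyond their spread, so *Grik1* among glutamatergic subclasses was read mainly in L5/6 NP and L4 IT neurons.

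*Grik2*, the low-affinity subunit GluK2, was the most widely read of the family. Its level was 2591 ± 272 CPM in Lamp5 interneurons, 2382 ± 166 in Vip interneurons, 2195 ± 199 in striatal projection neurons, 1989.9 ± 232 in L5 ET neurons, 1974 ± 163 in Sst interneurons, 1804 ± 298 in newly formed oligodendrocytes and 1534 ± 113 in Pvalb interneurons. No neighbours in that run differed beyond their spread. A step down followed to oligodendrocytes with 966 ± 113 CPM of *Grik2* and precursors with 919 ± 173. The level was 668 ± 40.4 in L6 CT, 663 ± 47.7 in L2/3 IT, 607 ± 125 in claustrum and Car3, 554 ± 56.1 in L5 IT, 539 ± 20.1 in L5/6 NP, 464 ± 45.9 in L6b and 417 ± 29.9 in L4 IT neurons, with 445 ± 175 in astrocytes. Microglia had the lowest level of *Grik2*, 73.7 ± 31.4 CPM, below L4 IT neurons beyond the spread.

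*Grik3*, the low-affinity subunit GluK3, was highest in deep layers. Its level was 654 ± 90.4 CPM in L6b, 631 ± 98.4 in L5/6 NP and 567 ± 67.9 in L6 CT neurons, which did not differ beyond their spread, and then 414 ± 61.9 in Sst interneurons and 214 ± 31.4 in L5 IT neurons, each a step beyond the spread. Below L5 IT neurons no neighbours differed beyond their spread. These levels of *Grik3* were 179 ± 36.0 in oligodendrocyte precursors, 146 ± 38.0 in newly formed oligodendrocytes, 114 ± 40.9 in claustrum and Car3 neurons, 101 ± 22.9 in L5 ET neurons, 88.7 ± 13.3 in striatal projection neurons, 71.9 ± 15.2 in Pvalb interneurons, 44.1 ± 13.3 in Vip interneurons and 28.0 ± 6.27 in L4 IT neurons. The lowest were 19.8 ± 32.3 CPM in astrocytes, 16.2 ± 4.09 in microglia, 9.97 ± 4.70 in oligodendrocytes, 7.60 ± 4.15 in Lamp5 interneurons and 6.09 ± 2.08 in L2/3 IT neurons. Lamp5 interneurons, which were first for *Grik1* and *Grik2*, were thus next to last for *Grik3*.

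*Grik4*, the high-affinity subunit GluK4, had 321 ± 44.2 CPM in L6b neurons, 295 ± 42.1 in L6 CT neurons, 290.2 ± 38.8 in oligodendrocyte precursors, 247 ± 37.7 in Vip interneurons, 199 ± 46.0 in claustrum and Car3 neurons, 174 ± 52.0 in L5/6 NP neurons and 165 ± 73.9 in newly formed oligodendrocytes. It had 139 ± 25.0 CPM in L2/3 IT, 126 ± 15.1 in L5 IT, 123 ± 33.2 in striatal projection, 91.7 ± 17.5 in Lamp5, 74.6 ± 16.5 in L5 ET and 66.9 ± 13.7 in Sst neurons. The decline was gradual, with no neighbours apart beyond their spread down to Pvalb interneurons. *Grik4* had 43.7 ± 9.73 CPM in oligodendrocytes, 36.7 ± 21.3 in astrocytes, 32.6 ± 6.13 in Pvalb interneurons, 12.9 ± 3.28 in L4 IT neurons and 6.18 ± 3.06 in microglia, with the last 2 steps beyond the spread.

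*Grik5*, the high-affinity subunit GluK5, varied least over the neurons. Its level was 238 ± 28.1 CPM in L6 CT, 228 ± 44.2 in claustrum and Car3, 195 ± 26.6 in L5 IT, 186 ± 17.7 in striatal projection, 164 ± 16.6 in L2/3 IT, 163 ± 20.4 in L6b and 136 ± 20.7 in L4 IT neurons. It was 122 ± 15.9 in Lamp5, 118 ± 26.0 in L5/6 NP, 114 ± 19.8 in L5 ET, 113 ± 18.8 in Sst, 112 ± 23.8 in Vip and 86.2 ± 10.4 in Pvalb neurons. No neighbours among these differed beyond their spread. Oligodendrocyte precursors with 137 ± 26.6 CPM, astrocytes with 103 ± 42.4 and newly formed oligodendrocytes with 88.0 ± 25.6 lay within the neuronal range of *Grik5*. Oligodendrocytes with 38.6 ± 7.49 and microglia with 22.8 ± 12.9 lay below it, beyond the spread.

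*Neto1*, an auxiliary protein that also binds NMDA receptors, had 613 ± 63.1 CPM in Sst interneurons and 531 ± 58.3 in striatal projection neurons, which did not differ beyond their spread. A step below came L6b with 398 ± 48.6, L6 CT with 392 ± 22.7, oligodendrocyte precursors with 307 ± 76.1 and L5 ET neurons with 294 ± 31.0. The level of *Neto1* was then 211 ± 23.7 in claustrum and Car3, 183 ± 13.4 in L2/3 IT, 155 ± 15.8 in Pvalb, 153 ± 19.3 in L5 IT and 136 ± 22.8 in Lamp5 neurons. After a further step it was 75.9 ± 10.5 in Vip, 72.2 ± 7.55 in L4 IT and 34.9 ± 10.7 in L5/6 NP neurons, with 70.0 ± 45.5 in newly formed oligodendrocytes and 26.6 ± 18.1 in astrocytes. Microglia with 16.6 ± 3.61 CPM and oligodendrocytes with 10.8 ± 4.07 had the least *Neto1*.

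*Neto2*, the other auxiliary protein, stood out in L5/6 NP neurons with 519 ± 53.0 CPM, beyond the spread above Sst interneurons with 305 ± 52.5, Pvalb interneurons with 235 ± 24.7 and claustrum and Car3 neurons with 203 ± 54.4. L5/6 NP neurons thus ranked first for *Neto2* and fifteenth for *Neto1*. The level of *Neto2* was 169 ± 15.3 in L6b, 166 ± 30.8 in striatal projection, 124 ± 15.2 in L6 CT, 94.9 ± 21.1 in Lamp5 and 80.9 ± 3.29 in L2/3 IT neurons, with 109.9 ± 32.2 in oligodendrocyte precursors. It was 55.1 ± 8.65 in L5 IT, 32.3 ± 38.2 in astrocytes, 30.7 ± 6.24 in L5 ET, 29.0 ± 7.03 in Vip, 27.2 ± 13.0 in newly formed oligodendrocytes, 20.5 ± 4.50 in L4 IT, 16.6 ± 5.16 in oligodendrocytes and 14.0 ± 7.89 in microglia. Between Sst interneurons and L2/3 IT neurons, and below L5 IT neurons, no neighbours differed beyond their spread.

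**Figure D1:**
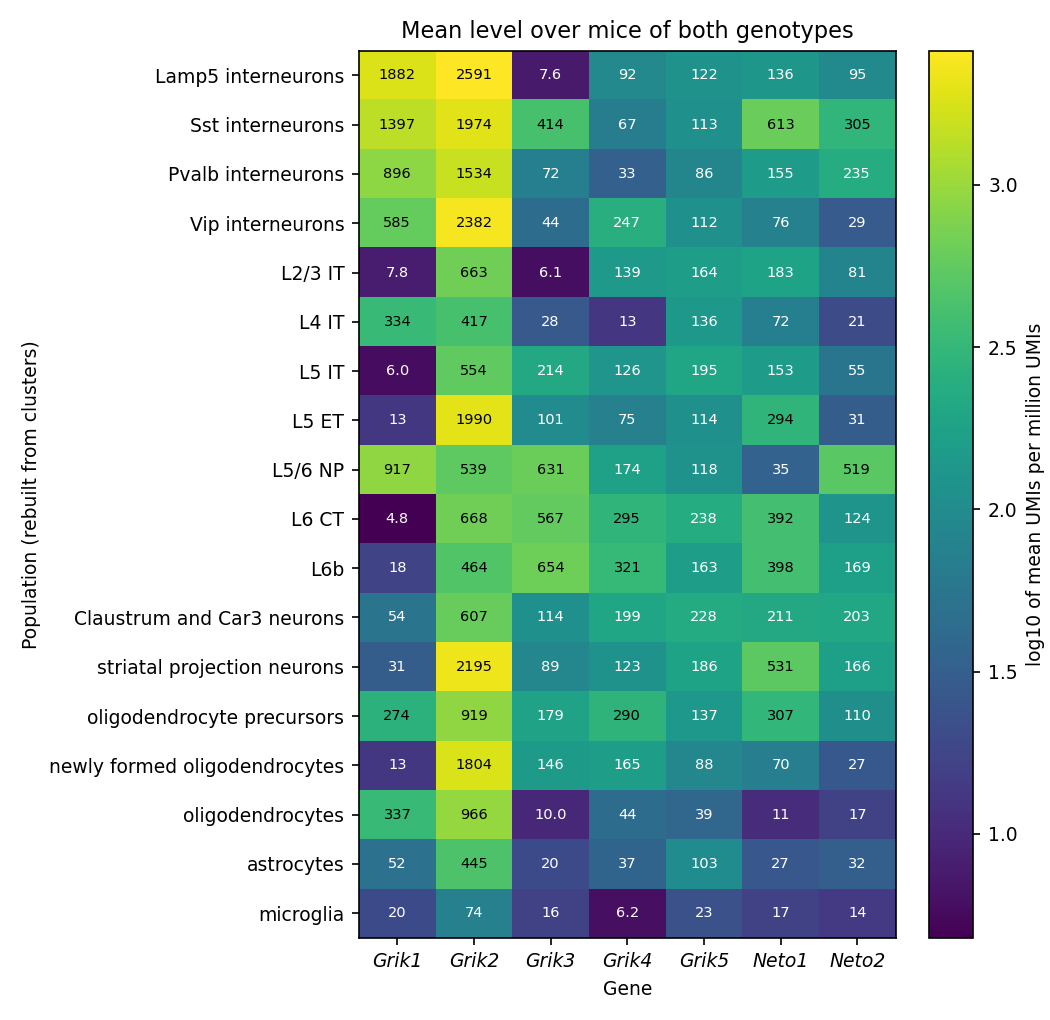
Mean level of the kainate receptor and Neto genes (columns) in each of 18 populations of nuclei (vertical axis), in CPM of the population, averaged over the mice of both genotypes with at least 10 nuclei, with colour on a log10 scale. *Grik1* and *Grik2* peak in Lamp5 interneurons (1882 and 2591), *Grik3* and *Grik4* in L6b neurons (654 and 321), *Grik5* in L6 CT neurons (238), *Neto1* in Sst interneurons (613) and *Neto2* in L5/6 NP neurons (519).

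The genes with the most similar patterns over the 18 populations were found among 14067 genes by Pearson correlation of mean log2(CPM + 1) levels. They were *Srsf1* (r = 0.84), *Tmem65* (0.83) and *Gm43660* (0.82) for *Grik1*, *Ranbp17* (0.90), *Mns1* (0.81) and *Rragb* (0.80) for *Grik2*, and *Cdh18* (0.81), *Gm49191* (0.78) and *Hnrnpll* (0.76) for *Grik3*. For the high-affinity subunits they were *Anks1b* (0.81), *Elfn2* (0.81) and *Pak3* (0.79) with *Grik4*, and *Jazf1* (0.91), *Gucy1a2* (0.91) and *Macrod2* (0.91) with *Grik5*. For the auxiliary proteins they were *Gria3* (0.89), *Rbfox1* (0.84) and *Nup210* (0.84) with *Neto1*, and *Gm48727* (0.88), *Samd5* (0.88) and *Gm48728* (0.87) with *Neto2*. Within the family the highest correlations were 0.78 between *Grik5* and *Neto1* and 0.74 between *Grik4* and *Grik5*, whereas *Grik1* reached 0.36 with *Grik2* and 0.31 with *Neto2* and lay between -0.11 and -0.07 with the rest. *Srsf1* and *Gm43660* were highest in astrocytes (85.6 and 16.5 CPM), a population with few UMIs. The populations come from the same libraries and differ in depth, so these values describe patterns only.

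The genotypes were compared in each class to ask where loss of *Ifnar1* went with another level of a kainate receptor or Neto gene. Levels per mouse are raw CPM, whereas fold changes are from edgeR's fit with TMM normalization, and p was adjusted over all genes tested in the class. In oligodendrocytes *Grik1* had 158, 141, 166.5 and 133 CPM in Wt F1, F2, M1 and M2. It had 524, 589.8, 486 and 499.9 CPM in *Ifnar1*-/- F1, F2, M1 and M2. Every *Ifnar1*-/- mouse lay above every Wt mouse, and the means were 149.6 ± 15.2 CPM (SD, n = 4, 1234 UMIs in all) and 525 ± 46.0 CPM (SD, n = 4, 4100 UMIs), 3.51 times higher in *Ifnar1*-/- mice. The log2 fold change was 1.83 (SE 0.13) with an adjusted p of 3.13e-04 by edgeR, higher in 4 of 4 *Ifnar1*-/- mice, and over 16 alternatives of processing and tool the adjusted p ranged from 6.73e-31 to 0.00389. *Grik1* was the 1 gene of the 7 that passed in oligodendrocytes, where 7 of 11070 genes passed (0.0632%), 3 of them higher in *Ifnar1*-/- mice (0.0271%). By DESeq2 14 of 21930 genes passed, as did 14 by edgeR with the replicate label as a block, and 2 to 7 passed with 1 mouse left out (2 without *Ifnar1*-/- F2, 3 without Wt M2, *Ifnar1*-/- M1 or *Ifnar1*-/- M2).

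The *Grik1* values of oligodendrocytes were also read within each sex. Females had a mean of 149.4 CPM in Wt and 557 CPM in *Ifnar1*-/- mice, a log2 ratio of 1.90 (2 mice of each genotype). Males had 149.9 CPM in Wt and 493 CPM in *Ifnar1*-/- mice, a log2 ratio of 1.72 (2 mice of each genotype). The difference in *Grik1* was thus present in both sexes at a similar size, from 2 mice against 2, and was not tested within a sex.

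**Figure D2:**
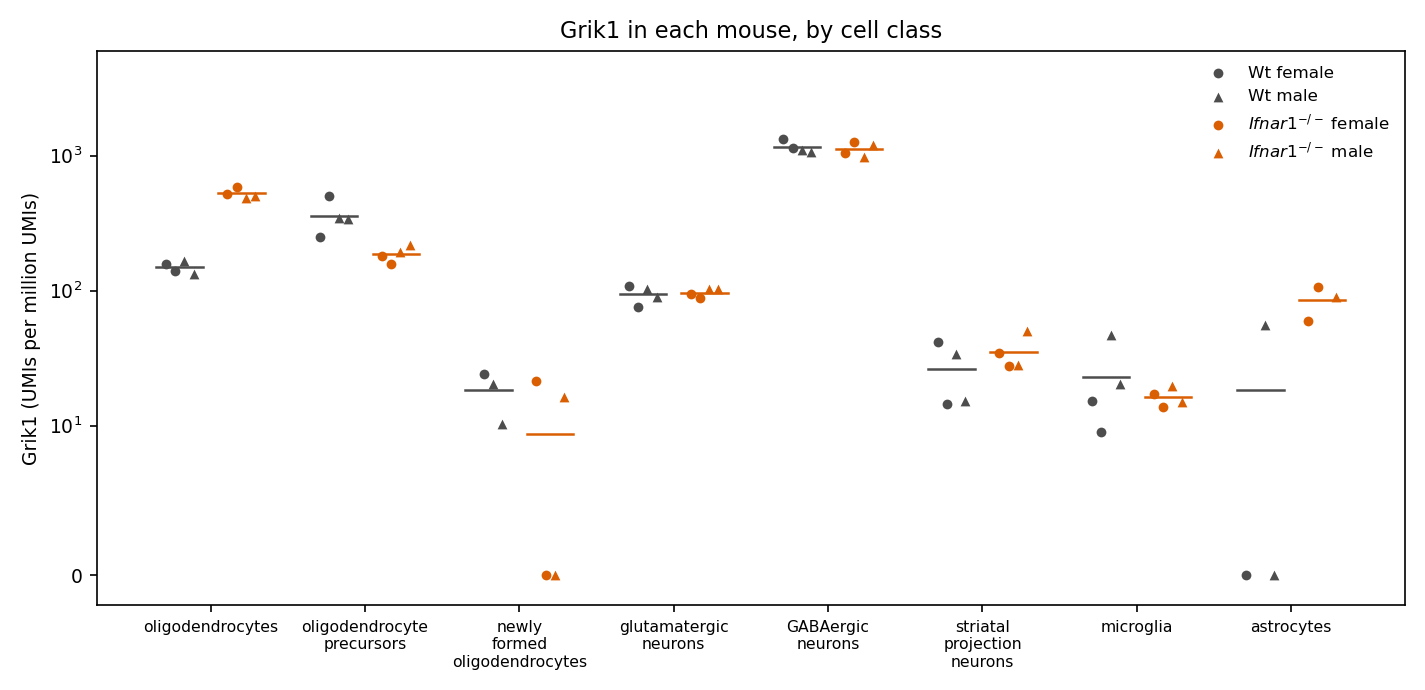
Level of *Grik1* in each mouse (points, circles for females and triangles for males) and its mean per genotype (lines) by cell class, in CPM of the class on an axis that is logarithmic above 10, for mice with at least 10 nuclei of the class. In oligodendrocytes the 4 *Ifnar1*-/- mice lie between 486 and 589.8, all above the 4 Wt mice, and in oligodendrocyte precursors between 158 and 218, all below the 4 Wt mice.

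Oligodendrocytes formed 3 clusters (19, 20 and 21) whose shares differed between mice. Cluster 19 held 59.9%, 44.6%, 23.2% and 26.9% of the oligodendrocytes of Wt F1, F2, M1 and M2 and 26.1%, 64.9%, 23.8% and 41.8% of those of *Ifnar1*-/- F1, F2, M1 and M2, and cluster 21 held 8.91%, 30.9%, 56.6% and 52.4% against 58.0%, 10.7%, 56.4% and 39.4%. In cluster 19 *Grik1* had 225, 203, 320.3 and 259 CPM in the Wt and 1198, 799.9, 1186 and 874 CPM in the *Ifnar1*-/- mice. In cluster 21 it had 213, 157, 128 and 91.9 CPM in the Wt and 351, 428, 342 and 329.8 CPM in the *Ifnar1*-/- mice. In both of these clusters the genotypes did not overlap, and *Grik1* rose by a log2 fold change of 2.04 (SE 0.17, edgeR adjusted p 7.47e-04, higher in 4 of 4 mice) in cluster 19 and of 1.39 (SE 0.23, adjusted p 0.0413, higher in 4 of 4 mice) in cluster 21. In cluster 20 it had 61.4, 57.2, 95.7 and 79.6 CPM in the Wt and 123, 215, 100.4 and 100.4 CPM in the *Ifnar1*-/- mice, with a log2 fold change of 0.91 (SE 0.26, edgeR p 0.00447, adjusted p 1.00, higher in 4 of 4 mice). Genes past the threshold were 0.0636% of 7865 in cluster 19, 0.055% of 7271 in cluster 20 and 0.069% of 8695 in cluster 21. The split by cluster was chosen after seeing the data, DESeq2 was not run on it, and whether the effect differed between the clusters was not tested.

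**Figure D3:**
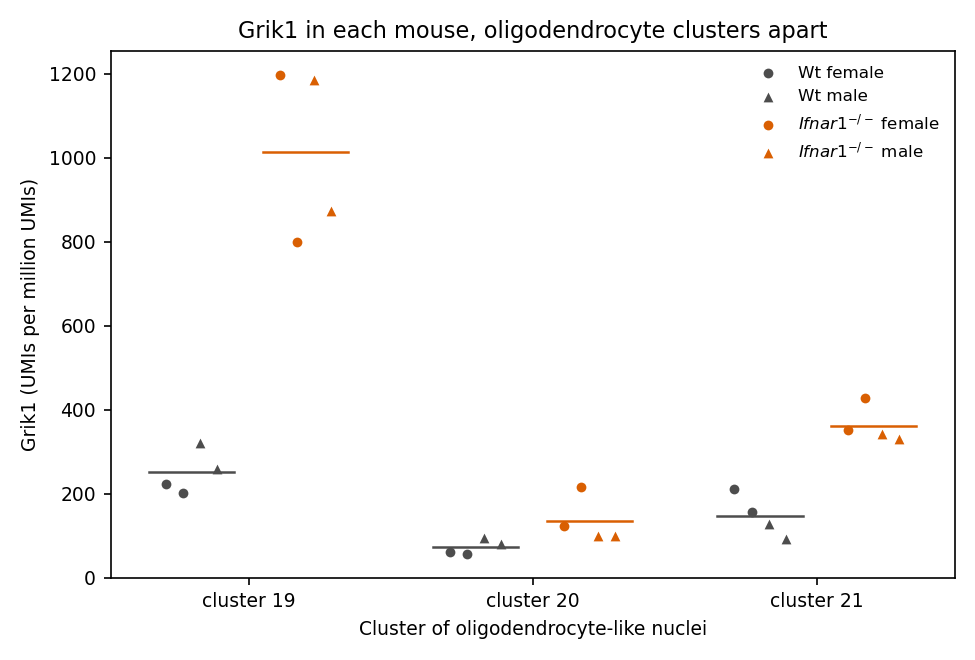
Level of *Grik1* in each mouse (points, circles for females and triangles for males) and its mean per genotype (lines) in the 3 clusters of oligodendrocytes, in CPM of the cluster. The *Ifnar1*-/- mice lie above the Wt mice in each cluster, and the levels are highest in cluster 19, where the *Ifnar1*-/- mice reach 799.9 to 1198.

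The difference was spread over many nuclei. *Grik1* had no UMI in 80.2% ± 2.63 (SD, n = 4) of the oligodendrocytes of Wt mice and in 58.7% ± 4.04 of those of *Ifnar1*-/- mice, and it had at least 3 UMIs in 3.92% ± 1.60 and 17.4% ± 4.96. The 10 nuclei with the most *Grik1* UMIs held 19.3% ± 4.68 of its UMIs in Wt and 13.0% ± 4.33 in *Ifnar1*-/- mice, so a few nuclei did not carry the level. With each nucleus brought to 1000 UMIs, the share of oligodendrocytes with a *Grik1* UMI was 12.1%, 10.7%, 12.9% and 10.2% in Wt F1, F2, M1 and M2 and 30.3%, 30.4%, 28.3% and 28.2% in *Ifnar1*-/- F1, F2, M1 and M2. The genotypes did not overlap, and the exact two-sided permutation p was 0.0286 (n = 4 and 4), the smallest that 4 against 4 mice can give. It was 0.125 when permuted within replicate labels and 0.0556 within each sex, again the smallest possible. Adjusted over all comparisons of shares, the p of 0.0286 did not pass the threshold. Without thinning the shares were 19.9% ± 2.63 and 41.3% ± 4.04. Microglia, which should lack *Grik1*, had a thinned share of 2.33% ± 1.70 in Wt and 1.57% ± 0.169 in *Ifnar1*-/- mice at a median depth of 1472 UMIs, against 2056 in oligodendrocytes.

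Markers of other cell types were read in the oligodendrocytes beside this result. Of GABAergic markers, *Gad1* had a mean of 21.8 CPM in Wt and 29.9 CPM in *Ifnar1*-/- mice, *Gad2* 16.1 and 17.8 CPM and *Slc32a1* 12.2 and 14.3 CPM, each overlapping between the genotypes. The 5 glutamatergic markers, all detected, summed to 115 ± 40.8 CPM in Wt and 129.8 ± 63.9 CPM in *Ifnar1*-/- mice, with *Slc17a7* the most abundant (55.9 and 60.4 CPM). The 6 astrocyte markers, all detected, summed to 223 ± 27.7 and 298.6 ± 104 CPM, with *Slc1a3* the most abundant (156 and 179.8 CPM) and *Ifnar1*-/- M2 the highest mouse (449 CPM). These 2 sums overlapped between the genotypes, with exact permutation p of 0.686 and 0.171 (n = 4 and 4). The 6 microglia markers summed to 117 ± 21.3 and 104 ± 9.98 CPM and the 5 precursor markers to 50.1 ± 15.8 and 42.1 ± 9.30 CPM. Of all the markers of other types and subclasses, *Crispld2* of Vip interneurons was at 0.

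*Grik1* in oligodendrocytes was also set beside the ratio of *Grik1* to *Gad1* in neurons and in microglia. GABAergic neurons had 4.51 *Grik1* UMIs per *Gad1* UMI in Wt and 3.83 in *Ifnar1*-/- mice, oligodendrocytes had 6.56 and 16.6, and microglia had 0.633 and 0.303. At the ratio of each mouse's own GABAergic neurons, the *Gad1* UMIs of its oligodendrocytes would carry 52.8 to 134 CPM of *Grik1* in the Wt mice and 71.7 to 158 CPM in the *Ifnar1*-/- mice. That is 33.4% to 100.4% of the *Grik1* level of the Wt mice and 12.2% to 31.5% of that of the *Ifnar1*-/- mice. By *Gad2* it is 19.5% to 76% and 5.36% to 22.5%, and by *Slc32a1* 39.0% to 71.3% and 11.1% to 23.1%. In oligodendrocytes without a UMI of *Gad1*, *Gad2* or *Slc17a7*, *Grik1* had 148.6 CPM in Wt and 521 CPM in *Ifnar1*-/- mice, a log2 fold change of 1.82 (SE 0.12, edgeR adjusted p 9.68e-05, higher in 4 of 4 *Ifnar1*-/- mice). That filter kept 79.3% of the oligodendrocytes. At these marker levels most nuclei that hold neuronal RNA could pass it, so the fit is no separate check of carried RNA.

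*Grik1* lies 3.19 Mb from *Ifnar1*, so 26 genes on chromosome 16 around both were read in oligodendrocytes, of which 21 were tested. Of these listed genes 0 passed by edgeR or DESeq2, and 1 had an unadjusted edgeR p under 0.05. It was *Tmem50b*, 3.28 Mb from *Grik1*, with 6.46, 7.45, 10.0 and 8.28 CPM in Wt and 11.4, 11.3, 16 and 25.9 CPM in *Ifnar1*-/- mice (log2 fold change 1.03, SE 0.30, p 0.00585, adjusted p 1.00, higher in 4 of 4 mice). *Bach1*, the listed gene nearest to *Grik1*, had a log2 fold change of 0.32 (SE 0.21), and *N6amt1* one of -0.48 (SE 0.28). The median over the 21 genes was -0.00, against 0.00 over all 11070 genes.

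The list left out genes of the same stretch. Every counted gene between its first and its last, without *Grik1* itself, was therefore read as well, a step chosen after seeing the data. Of 110 such genes 35 were tested by edgeR in oligodendrocytes, and 0 passed, 5 had an unadjusted p under 0.05 and 1 passed by DESeq2, with a median of 0.03 on the log2 scale. Of all 11070 genes 219 had an unadjusted p under 0.05. The nearest of the 5 to *Grik1* was *AC110241.2*, 0.0863 Mb away, with 254 CPM in Wt and 314 CPM in *Ifnar1*-/- mice (log2 fold change 0.32, SE 0.12, p 0.0259, adjusted p 1.00, with 3 of 4 *Ifnar1*-/- mice above every Wt mouse). *Eva1c*, 2.54 Mb from *Grik1* and named after its value was seen, had 0, 4.96, 0.869 and 2.18 CPM in Wt F1, F2, M1 and M2 and 9.26, 10.1, 13.9 and 11.7 CPM in *Ifnar1*-/- F1, F2, M1 and M2, from 15 and 88 UMIs. Its log2 fold change was 2.55 (SE 0.59), with an adjusted p of 0.850 by edgeR and of 0.0310 by DESeq2, higher in 4 of 4 *Ifnar1*-/- mice. In GABAergic neurons *Eva1c* had a log2 fold change of 0.96 (SE 0.16, edgeR adjusted p 0.211, DESeq2 adjusted p 0.00130, higher in 4 of 4 *Ifnar1*-/- mice). In glutamatergic neurons it had 4.09 CPM in Wt and 2.57 CPM in *Ifnar1*-/- mice (472 and 295 UMIs, log2 fold change -0.65, SE 0.23, edgeR p 0.0219, adjusted p 1.00, with 3 of 4 *Ifnar1*-/- mice below every Wt mouse). *Gm15965*, 2.69 Mb from *Grik1* and named in the same way, had 18.4, 18.6, 25.2 and 22.2 CPM in the oligodendrocytes of the Wt and 8.71, 7.74, 13.9 and 6.91 CPM in those of the *Ifnar1*-/- mice (log2 fold change -1.20, SE 0.24, edgeR p 4.83e-04, adjusted p 0.357, lower in 4 of 4 *Ifnar1*-/- mice). It was also lower, without overlap, in glutamatergic neurons (log2 fold change -1.04), GABAergic neurons (-0.92), striatal projection neurons (-1.18), microglia (-1.74) and all nuclei (-1.06). DESeq2 called it in 4 of these, with adjusted p of 2.47e-06 in glutamatergic neurons, 0.00152 in GABAergic neurons, 0.0123 in microglia and 1.37e-05 in all nuclei, where edgeR's adjusted p was 0.0846, 0.303, 0.0505 and 0.148 (lower in 4 of 4 *Ifnar1*-/- mice in each). In GABAergic neurons DESeq2 called 3 genes of the stretch and edgeR 0. The third was *AC134560.1*, 2.55 Mb from *Grik1* and named after its value was seen, with 1.79 CPM in Wt and 6.12 CPM in *Ifnar1*-/- mice (47 and 142 UMIs). Its log2 fold change was 1.78 (SE 0.24), with an adjusted p of 0.0856 by edgeR and of 3.73e-04 by DESeq2, higher in 4 of 4 *Ifnar1*-/- mice. The deletion and the flanking stretch of chromosome 16 around it cannot be told apart in this design.

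The other members in oligodendrocytes had levels that overlapped between the genotypes. *Grik2* had 998 ± 120 CPM in Wt and 933 ± 111 in *Ifnar1*-/- mice (log2 fold change -0.09, SE 0.16), *Grik4* 41.3 ± 3.30 and 46.2 ± 13.9 (0.17, SE 0.21), and *Grik5* 40 ± 10.5 and 37.2 ± 3.88 (-0.10, SE 0.18). *Grik3*, *Neto1* and *Neto2* had 83, 93 and 140 UMIs in Wt and 89, 85 and 136 UMIs in *Ifnar1*-/- mice, with log2 fold changes of 0.02, -0.02 and -0.04 and SEs of 0.41, 0.32 and 0.32. For these 6 genes edgeR's adjusted p was 1.00, 0 had an unadjusted p under 0.05, and 0 passed by DESeq2.

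**Figure D4:**
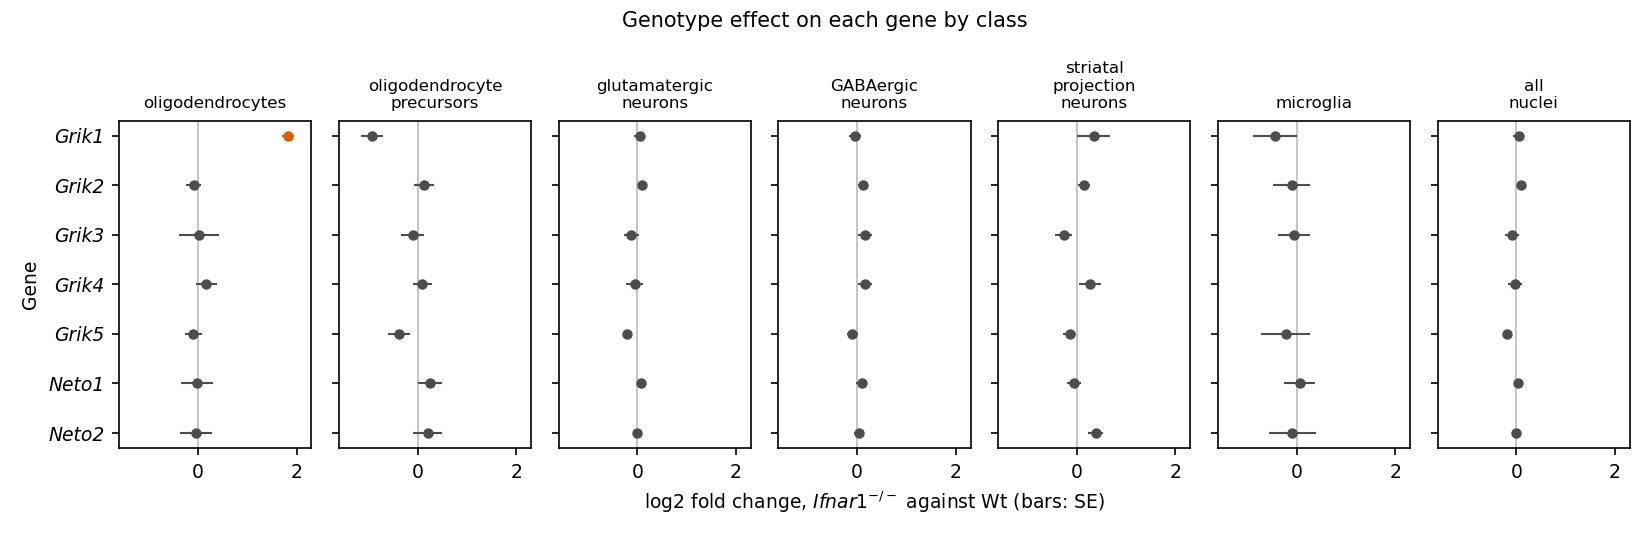
Log2 fold change of each gene in *Ifnar1*-/- against Wt mice (points) with its SE (bars), from edgeR's fit in 6 classes and in all nuclei. *Grik1* in oligodendrocytes (1.83, orange) is the 1 value past an adjusted p of 0.05, *Grik4* in microglia was not tested, and astrocytes, where *Grik2* was the 1 member tested, are not shown.

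Oligodendrocyte precursors, the dividing cells that give rise to oligodendrocytes, had *Grik1* on the other side. The level was 249, 500.2, 346 and 341 CPM in Wt F1, F2, M1 and M2 and 181, 158, 195 and 218 CPM in *Ifnar1*-/- F1, F2, M1 and M2. Every *Ifnar1*-/- mouse lay below every Wt mouse, with means of 359 ± 104 CPM (193 UMIs) and 188 ± 25.2 CPM (142 UMIs). The log2 fold change was -0.93 (SE 0.23, edgeR p 0.00129), lower in 4 of 4 *Ifnar1*-/- mice, and it missed the threshold with an adjusted p of 0.836 (0.506 to 1.00 over the alternatives). In females the log2 ratio of mean *Grik1* CPM was -1.14 and in males -0.74 (2 mice of each genotype and sex). Of the 7 members 0 passed by edgeR, 1 had an unadjusted p under 0.05 and 0 passed by DESeq2. The 3084 genes tested by edgeR gave 0 calls (0%), with 110 at an unadjusted p under 0.05 and 1 call with the replicate block, and the 17534 tested by DESeq2 gave 0 calls.

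The share of precursors with a *Grik1* UMI at 1000 UMIs per nucleus was 29.0% ± 5.53 in Wt and 16.2% ± 0.767 in *Ifnar1*-/- mice, and 61.9% ± 13.2 and 34.5% ± 6.29 without thinning at a median depth of 2356 UMIs. Precursors had 5.51 *Grik1* UMIs per *Gad1* UMI in Wt and 1.89 in *Ifnar1*-/- mice, from 3 to 29 *Gad1* UMIs a mouse. At the ratio of each mouse's own GABAergic neurons these *Gad1* UMIs would carry 65.8% to 117% of the *Grik1* level of the precursors in the Wt mice and 129.6% to 262% of it in the *Ifnar1*-/- mice. By *Gad2* it would be 0% to 26.5% in the Wt and 0% to 80.6% in the *Ifnar1*-/- mice, and by *Slc32a1* 0% to 46.0% and 0% to 177%. A carried level cannot exceed the measured one, so in mice with such values the ratio overstates what was carried. The 3 markers give unlike estimates from few UMIs, and the carried share of *Grik1* in precursors was not determined. In precursors without a UMI of *Gad1*, *Gad2* or *Slc17a7*, where Wt F1 was left out with 9 nuclei, *Grik1* had 385 CPM in Wt and 213 CPM in *Ifnar1*-/- mice (119 and 87 UMIs). The log2 fold change was then -0.87 (SE 0.23, edgeR p 0.00174, adjusted p 0.702), and 4 of 4 *Ifnar1*-/- mice lay below the 3 Wt mice. The filter kept 67.3% of the precursors, and nuclei that hold neuronal RNA could pass it here too. Over all precursors the GABAergic markers summed to 297 ± 42.65 CPM in Wt and 349 ± 90.1 CPM in *Ifnar1*-/- mice, and the glutamatergic markers to 177 ± 48.5 and 177 ± 72.6 CPM. Striatal projection neuron markers summed to 515 ± 15.45 and 493 ± 13.3 CPM, without overlap (exact permutation p 0.0286, not adjusted). L5 IT markers summed to 321 ± 78.7 and 503 ± 154 CPM, with overlap (exact permutation p 0.0571). *Grik5* in precursors had 153 ± 25.5 and 121 ± 17.5 CPM (log2 fold change -0.38, SE 0.22), and *Neto1* had 284 ± 83.7 and 331 ± 70.7 CPM (0.25, SE 0.24). *Grik2*, *Grik3*, *Grik4* and *Neto2* had log2 fold changes of 0.13, -0.10, 0.09 and 0.20, and all 6 overlapped between the genotypes. Newly formed oligodendrocytes had 8 and 6 *Grik1* UMIs over all mice of each genotype, too few for a comparison.

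In glutamatergic neurons the largest difference by size was that of *Grik5*. Its level was 182, 180.0, 181 and 187 CPM in Wt F1, F2, M1 and M2 and 128, 173, 172 and 157 CPM in *Ifnar1*-/- F1, F2, M1 and M2. The genotypes did not overlap, and the Wt mice were close together (183 ± 3.34 CPM) where the *Ifnar1*-/- mice spread (157 ± 21 CPM). The log2 fold change was -0.20 (SE 0.09, edgeR p 0.0472, lower in 4 of 4 *Ifnar1*-/- mice) with an adjusted p of 1.00. The other members had log2 fold changes from -0.12 (*Grik3*) to 0.09 (*Grik2*), with *Grik1* at 0.05 (SE 0.11), and overlapped between the genotypes. By edgeR 0 of the 7 members passed and 1 had an unadjusted p under 0.05, and 0 passed by DESeq2. Of 18176 genes 10 passed in all by edgeR (0.055%), 323 had an unadjusted p under 0.05, and 4 to 9 passed with 1 mouse left out.

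GABAergic neurons, the class with the most *Grik1*, had 1163 ± 120 CPM of it in Wt and 1119 ± 128 CPM in *Ifnar1*-/- mice (log2 fold change -0.04, SE 0.12). *Grik2* had 1942 ± 144 and 2104 ± 136 CPM (0.13, SE 0.10) and *Neto2* 211 ± 24.4 and 215 ± 31.8 CPM (0.04, SE 0.11). The genotypes overlapped for every member in GABAergic neurons. None of the 7 passed or had an unadjusted p under 0.05 by edgeR, and 0 passed by DESeq2, where 4 of 14602 genes passed in all by edgeR (0.0274%) and 2 to 4 with 1 mouse left out.

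Striatal projection neurons, which have *Grik2* and *Neto1* at high levels, had *Grik2* at 2094 ± 240.1 CPM in Wt and 2296 ± 88.3 CPM in *Ifnar1*-/- mice (log2 fold change 0.15, SE 0.12). *Neto2* had 163, 109.6, 167 and 139 CPM in the Wt and 188, 209, 185 and 164 CPM in the *Ifnar1*-/- mice, with an overlap of Wt M1 and *Ifnar1*-/- M2. Its log2 fold change was 0.38 (SE 0.15, edgeR p 0.0277, adjusted p 1.00), with 3 of 4 *Ifnar1*-/- mice above every Wt mouse. *Grik1* had a log2 fold change of 0.34 (SE 0.33), *Grik3* one of -0.27 (SE 0.17) and *Grik4* one of 0.27 (SE 0.22). By edgeR 0 of the 7 members passed and 1 had an unadjusted p under 0.05, and 0 passed by DESeq2. Of 8334 genes tested by edgeR 0 (0%) passed, 190 had an unadjusted p under 0.05 and 6 passed with the replicate block, and 3 of the 20818 genes tested by DESeq2 passed.

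Microglia had few UMIs of the family, from 46 for *Grik4* to 454 for *Grik2* over the 8 mice, and *Grik4* fell under the filter of the test. The log2 fold changes of the other 6 lay between -0.43 (*Grik1*, SE 0.44) and 0.06 (*Neto1*, SE 0.31), and the genotypes overlapped for all 7. By edgeR 0 members passed or had an unadjusted p under 0.05 and 0 passed by DESeq2, where 9 of 9519 genes passed in all by edgeR (0.0945%), 17 with the replicate block and 3 to 14 with 1 mouse left out. In astrocytes, with 3 mice of each genotype, *Grik2* was the 1 member that the filter of edgeR left for a test (log2 fold change -0.69, SE 0.36, edgeR p 0.0867, adjusted p 1.00). *Grik1* had 4 UMIs in the astrocytes of Wt and 30 in those of *Ifnar1*-/- mice, at 18.4 ± 31.9 and 85.3 ± 23.5 CPM. The genotypes did not overlap, from these few UMIs, and 3 against 3 mice cannot give an exact p under 0.1. The log2 fold change of *Grik1* was 1.93 (SE 1.37, adjusted p 0.999) by DESeq2, which tested all 7, and 1.78 (SE 0.86, p 0.0382, adjusted p 0.842) by edgeR without the filter, where *Grik3* had -2.66 (SE 1.34, p 0.0479, adjusted p 0.842). Of 947 genes tested by edgeR in astrocytes 0 (0%) passed, 43 had an unadjusted p under 0.05 and 4 passed with the replicate block, and 0 of the 15164 tested by DESeq2 passed.

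Over all nuclei no member passed. *Grik5* had 156, 159.6, 163 and 159.9 CPM in the Wt and 116, 151, 156 and 139 CPM in the *Ifnar1*-/- mice, without overlap (log2 fold change -0.19, SE 0.08, edgeR p 0.0563, adjusted p 1.00, lower in 4 of 4 *Ifnar1*-/- mice). *Grik1* had 279 ± 40.8 and 287 ± 29.5 CPM (0.04, SE 0.11), so its difference in oligodendrocytes was not seen in the whole. By edgeR 0 of the 7 members passed or had an unadjusted p under 0.05 and 0 passed by DESeq2, where 10 of 19969 genes passed in all by edgeR (0.0501%) and 4 to 7 with 1 mouse left out.

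Whether the effect on *Grik1* differed between oligodendrocytes and other classes was tested with the difference of log2(CPM + 1) between the classes in each mouse, by exact two-sided permutation over mice. Against oligodendrocyte precursors that difference was -0.65, -1.82, -1.05 and -1.35 in Wt F1, F2, M1 and M2 and 1.53, 1.89, 1.32 and 1.19 in *Ifnar1*-/- F1, F2, M1 and M2. In every Wt mouse *Grik1* was thus higher in precursors than in oligodendrocytes, and in every *Ifnar1*-/- mouse it was lower. The effect of genotype in oligodendrocytes less that in the other class was 2.70 for precursors, 1.76 for glutamatergic neurons, 1.86 for GABAergic neurons, 1.30 for striatal projection neurons and 2.05 for microglia. Each of these had an exact permutation p of 0.0286 (4 against 4 mice) and an adjusted p of 0.0343 over the 6 classes, higher in 4 of 4 *Ifnar1*-/- mice. The mice of 1 replicate label deviated together, and so did mice of 1 sex. Permuted within replicate labels, each of the 5 had an exact permutation p of 0.125 (adjusted p 0.15), and within each sex 0.0556 (adjusted p 0.0667), in both cases the smallest that 4 against 4 mice can give that way, so 0 of the 5 passed with either, alternatives chosen after seeing the data. For astrocytes the difference was -2.64 (3 against 3 mice, exact permutation p 0.4). It ranged from -3.30 to -1.16 with pseudocounts of 0.5 and 5 and from -4.51 to -1.64 with 1 mouse left out, with 0 *Grik1* UMIs in the astrocytes of Wt F1 and M2. *Grik1* and oligodendrocytes were named for this test with earlier results of these data known, and its p of 0.0286, the smallest that 4 against 4 mice can give, is not adjusted over the 7 members.

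Other ionotropic glutamate receptor genes were read in oligodendrocytes beside the kainate family. All 4 AMPA receptor subunit genes were tested, at a median of -0.12 on the log2 scale, *Gria2* at -0.42 (SE 0.23) and *Gria1* at -0.14 (SE 0.16). Of 7 NMDA receptor subunit genes 5 were tested, with a median of 0.30, *Grin2d* at 0.69 (SE 0.36) and *Grin2b* at 0.39 (SE 0.21). Of 17 genes for partners of kainate receptors 12 were tested, with a median of 0.03, *C1ql3*, a secreted synaptic protein, at 0.48 (SE 0.33) and *Snap25*, a protein of vesicle fusion, at 0.40 (SE 0.35). The 3 genes for RNA editing enzymes, which edit the RNA of some kainate subunits, had a median of 0.21, *Adar* at 0.26 (SE 0.20) and *Adarb1* at 0.21 (SE 0.27). In each of these lists 0 genes passed by edgeR in either direction, 0 had an unadjusted p under 0.05 and 0 passed by DESeq2.

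The metabotropic glutamate receptors were added after seeing the data. Of their 8 genes 5 were tested in oligodendrocytes, with a median of 0.08 on the log2 scale, and 0 passed by edgeR, 1 had an unadjusted p under 0.05 and 1 passed by DESeq2. It was *Grm7*, named after its value was seen, with 589, 480.3, 391 and 328 CPM in Wt F1, F2, M1 and M2 and 1105, 1244, 912 and 1123 CPM in *Ifnar1*-/- F1, F2, M1 and M2. The genotypes did not overlap, and the log2 fold change was 1.30 (SE 0.20) with an adjusted p of 0.0706 by edgeR and of 3.695e-05 by DESeq2, higher in 4 of 4 *Ifnar1*-/- mice. In the other classes, where it was tested in 5, the log2 fold change of *Grm7* was -0.27 (SE 0.32) in microglia and 0.08 to 0.11 elsewhere, and the genotypes overlapped.

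Genes of glutamate uptake and of the oligodendrocyte lineage were read in oligodendrocytes too. Of 9 uptake genes 7 were tested, at a median of 0.05 on the log2 scale, *Slc1a2* at 0.87 (SE 0.51) and *Slc1a1* at -0.47 (SE 0.25). The 10 myelin genes had a median of -0.14, *Mobp* at -0.30 (SE 0.18) and *Mog* at -0.21 (SE 0.16). Of 7 genes of newly formed oligodendrocytes 5 were tested, with a median of -0.12, *Itpr2* at -0.52 (SE 0.27) and *Enpp6* at -0.22 (SE 0.13). In these 3 lists 0 genes passed by edgeR or DESeq2 and 0 had an unadjusted edgeR p under 0.05, against 219 of all 11070 genes.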

How the data were processed

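Nuclei of the cortex of 4 Wt and 4 *Ifnar1*-/- mice were profiled by snRNA-seq, 1 library per mouse. Per the notes of the authors, Cell Ranger and Seurat 3.1.5 were used with build mm10, and the deposited values are raw UMI counts per gene and barcode, with unspliced RNA counted and no normalization. Total UMIs per library were 44063346 to 58423423. Nuclei with 200 to 6000 genes, over 1000 UMIs and under 10% mitochondrial UMIs were kept (54341 of 56780 barcodes), doublets called per library by Scrublet in scanpy 1.11.5 were removed, and the rest were clustered (3000 variable genes, from which the members were left out, 40 components, 15 neighbours, resolution 2). Counts were summed per class and mouse (at least 10 nuclei) and compared with edgeR 4.0.16 (quasi-likelihood, TMM, low counts filtered, Benjamini-Hochberg over all genes of a class) in R 4.3.3. DESeq2 1.42.0 was an alternative. The edgeR step was tested on simulated data.

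Shares of nuclei with a UMI were computed at 1000 UMIs per nucleus, and single values were compared by exact permutation over mice. The members and lists were chosen with earlier results of these data known. The genes named are the members, annotated genes that overlap them, the 3 genes most like each member among those with at least 10 CPM in 1 population, and of each list the genes past the threshold and the 2 with the largest fold change in oligodendrocytes. *Bach1* was named for its position, after its value was seen, and *AC110241.2*, *AC134560.1*, *Eva1c*, *Gm15965* and *Grm7* for their values. Coordinates are from GENCODE for GRCm38.

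Mice with the same replicate label (F1, F2, M1, M2) in both genotypes deviated together in the 4 classes checked, with correlations of 0.167 to 0.637, and so did mice of the same sex with different labels (0.146 to 0.753), but not mice of different sex (-0.763 to -0.138). Pairing by label and likeness by sex cannot be told apart. Genotypes were compared without pairs, and with the label as a block as an alternative.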

Additional observations from a re-analysis of the deposited data

Results flagged for a closer look

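In 4 of 98 groups of 4 mice, 1 mouse lay far from the other 3 in the level of a member, and chance alone gives about 1 in 20 groups. *Neto1* in oligodendrocytes was highest in Wt M1 with 20 CPM (46 UMIs), against 7.84 to 8.07 CPM in the other Wt mice, a gap of 0.981 of the range. *Grik2* in oligodendrocyte precursors was highest in Wt F1 with 1105 CPM (80 UMIs), against 787 to 827 CPM in the other Wt mice, a gap of 0.873 of the range. *Neto2* in oligodendrocyte precursors was highest in *Ifnar1*-/- M2 with 175 CPM (41 UMIs), against 92.2 to 103 CPM in the other *Ifnar1*-/- mice, a gap of 0.87 of the range. *Grik4* in striatal projection neurons was highest in *Ifnar1*-/- F2 with 198 CPM (158 UMIs), against 108 to 119 CPM in the other *Ifnar1*-/- mice, a gap of 0.883 of the range.

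The effect of genotype on *Grik1*, as a difference of log2(CPM + 1), was larger in oligodendrocytes than in oligodendrocyte precursors by 2.7, glutamatergic neurons by 1.76, GABAergic neurons by 1.86, striatal projection neurons by 1.3 and microglia by 2.05. Each difference had an exact permutation p of 0.0286 (n = 4 and 4), the smallest that 4 against 4 mice can give, and an adjusted p of 0.0343, which is over the classes and not over the members, with *Grik1* chosen when earlier results were known. Permuted within replicate labels the exact p of each was 0.125, and within each sex 0.0556, so 0 passed.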

How the results depend on the processing

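*Grik1* in oligodendrocytes passed the adjusted threshold under all 16 alternatives (edgeR or DESeq2), with log2 fold changes of 1.74 to 1.88 and adjusted p of 6.73e-31 to 0.00389, and 1.75 to 1.88 with 1 mouse left out. Coarser clusters gave the same numbers of genes tested and passed as the main fit in oligodendrocytes, precursors and astrocytes. That alternative was therefore no separate check in these classes. No other member passed in the 745 other fits of a member in a class, where the lowest adjusted p was 0.506. Of the 48 other pairs of member and class, 23 had the same sign under every alternative and 25 did not. With the replicate block the members past the threshold were 1 in oligodendrocytes and 0 in every other class, as without it. In oligodendrocyte cluster 20, taken apart after seeing the data, 0 members passed. By edgeR 0 neighbours on chromosome 16 and 0 other glutamate receptor genes passed in oligodendrocytes. That held with every gene of the stretch but *Grik1* and with the metabotropic receptors, where DESeq2 called 1 each. Both lists were added after seeing the data. Of the 6 differences of the *Grik1* effect between classes, 5 passed with all mice and with pseudocounts of 0.5 and 5, and 0 passed with any 1 mouse left out, where 3 against 4 mice cannot give a p under 0.0571. Permuted within replicate labels (replicate block) 0 of the 6 passed and within each sex 0, both added after seeing the data, where the smallest p possible is 0.125 and 0.0556. Shares of nuclei gave 0 of 56 comparisons past the adjusted threshold, thinned or not, with lowest adjusted p of 0.64 and 0.8. With 4 against 4 mice the exact permutation p cannot fall under 0.0286, so no lone comparison among 56 could pass. Mean levels over nuclei in place of CPM put the highest class of every member in the same place, and 3 of 49 levels moved by more than 1 SD.

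Counts of all genes past the threshold moved more than those of the members. By edgeR they were 7 in oligodendrocytes, 0 in precursors, 10 in glutamatergic, 4 in GABAergic and 0 in striatal projection neurons, 9 in microglia, 0 in astrocytes and 10 in all nuclei. DESeq2 gave 14 in oligodendrocytes, 42 in glutamatergic, 17 in GABAergic and 3 in striatal projection neurons, 16 in microglia and 44 in all nuclei. Without the filter on low counts there were 12 in oligodendrocytes, 10 in precursors, 22 in striatal projection neurons, 22 in microglia and 4 in astrocytes. With sex as a covariate there were 18 in oligodendrocytes, 27 in glutamatergic, 10 in GABAergic and 5 in striatal projection neurons, 14 in microglia, 1 in astrocytes and 20 in all nuclei. The replicate block gave 14 in oligodendrocytes, 1 in precursors, 12 in glutamatergic, 5 in GABAergic and 6 in striatal projection neurons, 17 in microglia, 4 in astrocytes and 9 in all nuclei, and changed no call of a member in a class. With doublets kept there was 1 in precursors and 1 in striatal projection neurons, and with coarser clusters 1 in striatal projection neurons and 2 in microglia. Without nuclei that held a neuronal marker UMI there were 2 in astrocytes. With 1 mouse left out there were 2 to 7 in oligodendrocytes (3 without Wt M2, *Ifnar1*-/- M1 or *Ifnar1*-/- M2 and 2 without *Ifnar1*-/- F2), 0 to 1 in precursors, 4 to 9 in glutamatergic and 2 to 4 in GABAergic neurons, 0 in striatal projection neurons, 3 to 14 in microglia, 0 to 1 in astrocytes and 4 to 7 in all nuclei. The causes were not tested.

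Precursors (193 and 142 *Grik1* UMIs), astrocytes and newly formed oligodendrocytes had few UMIs, as did most members in microglia, and the size of difference that could be found there was not tested.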

Other observations

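Within neuronal subclasses, taken apart after seeing the data, 0 of the members passed by edgeR in any of the 12 subclasses, and DESeq2 was not run on them. The unadjusted p was under 0.05 for 1 member in Pvalb interneurons, where 4 of all 12048 genes passed and 213 had such a p, and for 1 in L4 IT neurons, where 7 of 11852 passed and 294 had such a p. Over the 12 subclasses 1 to 9 genes passed. *Grik1* in Pvalb interneurons had a log2 fold change of -0.31 (SE 0.13, edgeR p 0.0363, adjusted p 1.00). *Grik5* in L4 IT neurons had a log2 fold change of -0.28 (SE 0.11, edgeR p 0.0249, adjusted p 1.00), and it was negative in every glutamatergic subclass, from -0.12 in L5/6 NP to -0.28 in L4 IT neurons, in mice that are the same throughout. That sign was not particular to glutamatergic neurons. *Grik5* was also negative in oligodendrocytes (-0.10), precursors (-0.38), GABAergic neurons (-0.10), striatal projection neurons (-0.14) and microglia (-0.22). Among interneurons it ranged from -0.05 in Vip to -0.14 in Sst interneurons, and in oligodendrocyte cluster 21 it was 0.04. *Grik5* in oligodendrocyte cluster 20 had a log2 fold change of -0.75 (SE 0.34, edgeR p 0.044, adjusted p 1.00).

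*Slc1a2*, the main astrocyte glutamate transporter, had 227 CPM in the oligodendrocytes of *Ifnar1*-/- M2 against 27.3 to 97.4 CPM in those of the other 7 mice. *Grik2* was higher in newly formed oligodendrocytes (1804 ± 298 CPM, n = 7) than in precursors (919 ± 173 CPM, n = 8) or oligodendrocytes (966 ± 113 CPM, n = 8), as a description of clusters and without a test. In the same nuclei *Grik1* had 13.2 ± 10.0 CPM, below both.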
